A study of Fragaria x ananassa with 9 samples.

Results

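The late enzymes of anthocyanin synthesis are described here through 7 assembled unigenes of strawberry petals, of 50285 unigenes listed: 3 with the KEGG number of dihydroflavonol 4-reductase (DFR), 1 with that of anthocyanidin synthase (ANS) and 3 with that of anthocyanidin 3-O-glucosyltransferase (BZ1). A unigene is the longest transcript of a group that a de novo assembly treats as a gene, and identifiers that differ only in their last part (g2, g3) are groups split from 1 cluster of shared sequence. The 7 were chosen by identifier from a list drawn up with the stage levels of these libraries known. Their differences between stages are therefore given as a description with no p-value, and nothing is read from whether a member passed the limits used for all unigenes.

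Petals of the pink-flowered cultivar Sijihong (labelled Fragaria x ananassa), raised from the cross of Pink Princess and Pretty Beauty, were sampled at 3 stages, with 3 biological replicates each. PF_L is the young bud, with petals not yet coloured, PF_Z is the beginning of coloration, and PF_D is the big bud, with coloured petals that had not opened. All 9 libraries come from 1 cultivar, which has dark red flowers, with no treatment. No hybrid of another flower colour stands beside it, and the open flower was not analysed here. Pigment amounts are not used here, so stage colour is the only measure of pigment set beside the levels.

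Anthocyanins, the red and blue pigments of most petals, are made from phenylalanine. Phenylalanine ammonia-lyase, cinnamate 4-hydroxylase and 4-coumarate-CoA ligase supply an activated acid, from which chalcone synthase, chalcone isomerase and flavanone 3-hydroxylase make dihydroflavonols. DFR reduces these to leucoanthocyanidins, ANS oxidises them to coloured anthocyanidins, and BZ1, named after the maize bronze locus, attaches a sugar that makes the pigment stable and soluble. Flavonol synthase draws on the same dihydroflavonols as DFR, while leucoanthocyanidin reductase and anthocyanidin reductase lead leucoanthocyanidins and anthocyanidins to colourless flavan-3-ols.

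The sequences of the assembled unigenes were not used here. The study measured transcripts that it names FpDFR, FpANS and FpBZ1 by quantitative PCR in related hybrids. It also set quantitative PCR of flower-colour genes beside the sequencing values and reported closely similar patterns. FpBZ2 and FpBZ3 were measured as well, and their primers are not given here. The primers below, of 20 bases each, stand here for the 3 enzymes, and which unigene each pair amplifies was not tested. They are given 5′ to 3′.
FpDFR forward: gccttccacagcgtcaagtg
FpDFR reverse: tcgtcggatcatggctggtc
FpANS forward: atcttctccttgggcggctc
FpANS reverse: aacatggttcccggtctgca
FpBZ1 forward: aacttgggctcctcagtcgg
FpBZ1 reverse: ctccctccctgccacttgtt
5 of the 6 primers have a GC content of 60% and the FpANS reverse primer has 55%.

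Levels are TPM, a transcript abundance scaled for transcript length and to a nearly equal total in each library, so unigenes can be compared within a library. The deposited totals were 993148 to 994911 TPM per library, and TPM keeps no count. The paper gives the read number of each library, which was not used here. The B-class MADS-box genes that mark petals and stamens were high at every stage, with a summed TPM of 1897 to 2009 in PF_L, 1618 to 2003 in PF_Z and 1560 to 1820 in PF_D over 2 unigenes, neither of which passed the test in any comparison. The C-class genes of stamens and carpels, kept after their values were seen to 5 unigenes described as AGAMOUS or SHATTERPROOF-like, summed to 29.5 to 58.7 TPM, and none of the 4 tested was called by limma. Of 32 unigenes described as light-harvesting proteins or the Rubisco small subunit, which mark green tissue, 28 fell and none rose from PF_L to PF_D. By the same limma calls, 15.7% of all 47924 tested unigenes were lower and 9.38% higher in PF_D. The 32 summed to 6915 to 10546 TPM in PF_L, 2377 to 9940 TPM in PF_Z and 540.1 to 2095 TPM in PF_D. The part of this difference in the levels below was not tested. In whole petals, a lower level from fewer cells of a type and one from less RNA per cell cannot be told apart.

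DFR was represented chiefly by TRINITY_DN14121_c0_g3, 1311 bases long and annotated as dihydroflavonol 4-reductase of Fragaria vesca. It was at 1.84, 0.23 and 0.69 TPM in the 3 PF_L libraries. In PF_Z it was at 87.58, 64.45 and 159.37 TPM, and in PF_D at 259.57, 814.12 and 638.41 TPM. The 3 stages did not overlap, and within PF_D replicate 1 was well below the other libraries. The means were 0.92 ± 0.829, 103.8 ± 49.5 and 570.7 ± 283 TPM (SD, n = 3), so the PF_D mean was 620 times and the PF_Z mean 113 times that of PF_L. These ratios rest on a PF_L mean under 1 TPM: without PF_L replicate 1 they were 1241 and 226 times, and the first was 451 to 789 times without any other single library. On the log2(TPM + 1) scale, which understates the change of low genes, PF_D was 8.15 (SE 0.47) above PF_L, and 70.6% of this difference was already present at PF_Z. Ordered by TPM from the highest down among all listed unigenes, its median place was 43639 in PF_L, 1883 in PF_Z and 130 in PF_D.

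TRINITY_DN14121_c0_g2, a DFR unigene of 1038 bases from the same assembly cluster, was at a far lower level. It was at 0.10, 0 and 0.11 TPM in PF_L, at 0.22, 0.49 and 0.63 TPM in PF_Z, and at 1.08, 3.59 and 2.07 TPM in PF_D. The stages did not overlap here either, but only the PF_D libraries reached 1 TPM, and the unigene passed the filter on low values only through them. PF_D was 1.53 (SE 0.35) above PF_L on the log2(TPM + 1) scale. Unigenes of 1 cluster share sequence, so reads of near-identical copies may be split between them, and the level of each is uncertain to that extent.

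TRINITY_DN25108_c0_g1, of 2274 bases, carries the KEGG number and the gene name of DFR. Its Swiss-Prot protein description is that of a bifunctional dihydroflavonol 4-reductase/flavanone 4-reductase. Its match in the non-redundant protein set is a cinnamoyl-CoA reductase 2-like protein, of the related family that makes lignin precursors. It was at 7.71, 8.37 and 6.63 TPM in PF_L, at 19.41, 19.96 and 20.51 TPM in PF_Z, and at 29.58, 34.50 and 37.50 TPM in PF_D. It was thus the steadiest of the 7, with a coefficient of variation of 2.76% in PF_Z and at most 11.8% in PF_L and PF_D. PF_D was 2.02 (SE 0.15) above PF_L and PF_Z was 1.30 (SE 0.15) above PF_L on the log2(TPM + 1) scale. The 3 stages did not overlap.

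ANS was represented by a single listed unigene, TRINITY_DN20632_c0_g1, of 1486 bases and with 11 assembled transcripts. It was at 5.20, 1.17 and 3.01 TPM in PF_L. In PF_Z it was at 287.55, 153.80 and 260.96 TPM, and in PF_D at 735.99, 1014.24 and 757.58 TPM. No library of a later stage came near those of the stage before, and ANS was the most abundant of the 7 in every PF_Z and PF_D library. Its means were 3.13 ± 2.02, 234 ± 70.8 and 836 ± 155 TPM (SD, n = 3), a PF_D mean 267 times and a PF_Z mean 74.9 times that of PF_L. PF_D was 7.78 (SE 0.36) above PF_L on the log2(TPM + 1) scale, with 76.0% of the difference present at PF_Z. Its median place among all unigenes went from 28883 in PF_L to 479 in PF_Z and 94 in PF_D.

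Among the BZ1 unigenes, TRINITY_DN20511_c0_g4 is the one described as an anthocyanidin 3-O-glucosyltransferase, and it is named GT1. The Swiss-Prot description is anthocyanidin 3-O-glucosyltransferase 1, while the match in the non-redundant protein set is anthocyanidin 3-O-glucosyltransferase 2 of Fragaria vesca. This unigene was at 2.63, 1.37 and 1.83 TPM in PF_L, at 60.90, 35.87 and 74.19 TPM in PF_Z, and at 327.74, 513.17 and 315.37 TPM in PF_D. The stages were again fully separate. The means were 1.94 ± 0.638, 57.0 ± 19.5 and 385 ± 111 TPM (SD, n = 3), and the PF_D mean was 198 times that of PF_L. PF_D was 7.02 (SE 0.29) above PF_L on the log2(TPM + 1) scale, of which 60.7% was present at PF_Z, a smaller part than for TRINITY_DN14121_c0_g3 or ANS. Between PF_Z and PF_D its mean was higher by 6.76 times, beside 5.50 times for TRINITY_DN14121_c0_g3 and 3.57 times for ANS.

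The other members with the BZ1 number, TRINITY_DN20511_c0_g3 and TRINITY_DN20511_c0_g2, are annotated as kaempferol 3-O-beta-D-galactosyltransferase-like, enzymes that put galactose on a flavonol. TRINITY_DN20511_c0_g3 was at 7.65, 3.62 and 6.24 TPM in PF_L, at 37.81, 26.57 and 53.04 TPM in PF_Z, and at 24.36, 53.75 and 52.48 TPM in PF_D. It had thus reached its PF_D range by PF_Z: PF_Z was 2.55 (SE 0.36) and PF_D 2.67 (SE 0.36) above PF_L on the log2(TPM + 1) scale, and the PF_Z and PF_D libraries overlapped. The difference between PF_D and PF_Z was 0.12 and went from -0.12 to 0.48 as single libraries were left out, the highest without PF_D replicate 1.

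TRINITY_DN20511_c0_g2 was at 39.91, 25.45 and 30.70 TPM in PF_L, at 50.14, 39.60 and 78.71 TPM in PF_Z, and at 35.86, 127.69 and 118.90 TPM in PF_D. It was the most abundant of the 7 in each PF_L library, and the only one whose PF_L and PF_D libraries overlapped, because PF_D replicate 1 was below PF_L replicate 1. PF_D was 1.35 (SE 0.44) above PF_L on the log2(TPM + 1) scale with all libraries and 1.93 above it without PF_D replicate 1. Against PF_Z, the difference of 0.59 became 1.18 without that library.

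**Figure D1:**
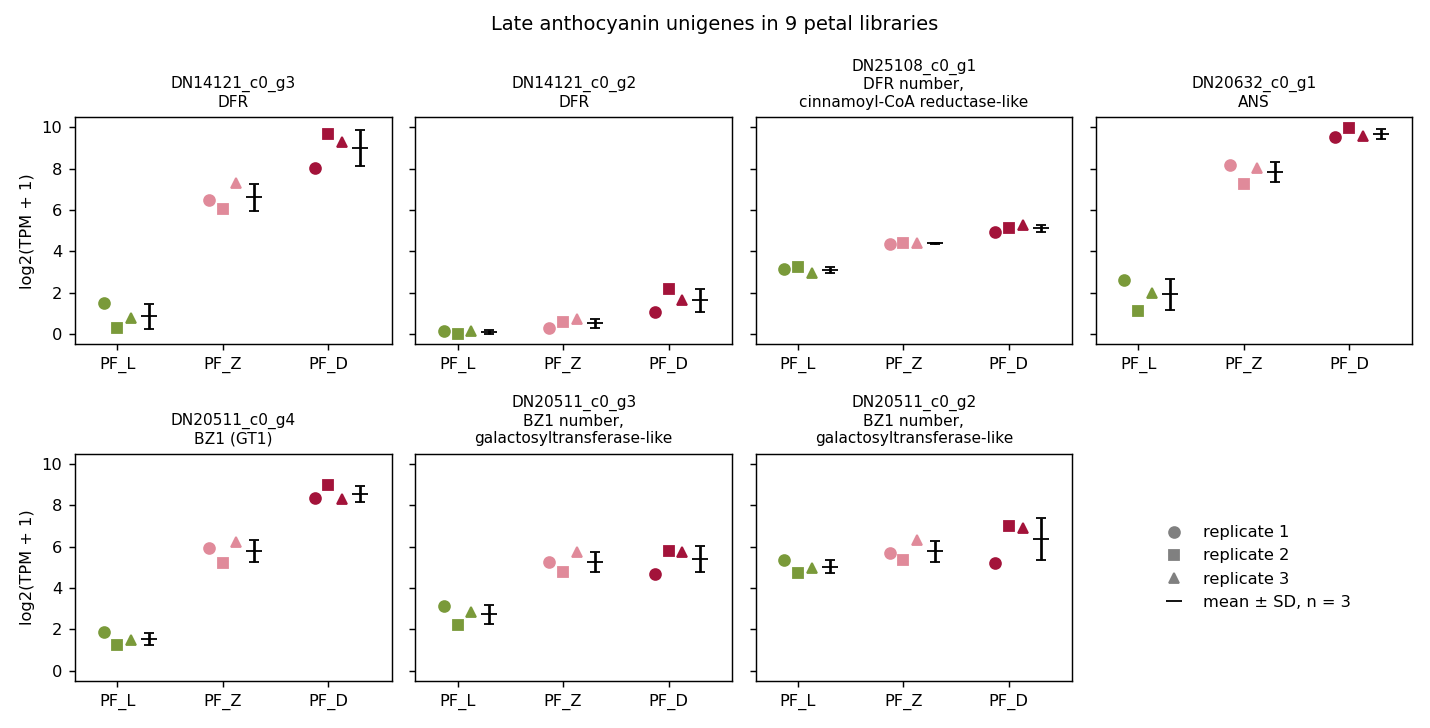
Level of the 7 unigenes in each library, as log2(TPM + 1), by stage (PF_L young bud, PF_Z beginning of coloration, PF_D big bud). Symbols are replicates and bars are mean ± SD of 3 libraries; TRINITY_DN14121_c0_g3, ANS and TRINITY_DN20511_c0_g4 go from under 3 to above 8, while TRINITY_DN20511_c0_g2 overlaps between PF_L and PF_D.

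Under the limits used for every unigene (log2 fold change of at least 1, limma with Benjamini-Hochberg adjustment), 6 of 6 members other than TRINITY_DN14121_c0_g2 were higher in PF_D than in PF_L, where 9.38% of 47924 tested unigenes were higher and 15.7% lower. TRINITY_DN14121_c0_g2 is left out of these counts because it passed the filter only through the stage where it is high. Between PF_L and PF_Z, 5 of these 6 were higher, beside 2.15% higher and 4.70% lower of all tested. Between PF_Z and PF_D, 3 of these 6 were higher, beside 8.89% higher and 9.07% lower of all tested. TRINITY_DN20511_c0_g2 was under the limits between PF_L and PF_Z, and TRINITY_DN25108_c0_g1, TRINITY_DN20511_c0_g3 and TRINITY_DN20511_c0_g2 were under them between PF_Z and PF_D. The median log2 difference of the 6 was 4.84, 3.40 and 1.30 in the order PF_D over PF_L, PF_Z over PF_L and PF_D over PF_Z, beside -0.12, -0.21 and 0.08 over all tested unigenes. Since the members were listed with these differences known, nothing is read from the counts, and the 3 comparisons share libraries.

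Among the members with the KEGG number of an enzyme, the unigene with the largest share of the summed TPM changed between stages. Of the summed TPM of the 3 DFR members, TRINITY_DN14121_c0_g3 supplied 19.1, 2.67 and 9.29% in PF_L, 81.7, 75.9 and 88.3% in PF_Z, and 89.4, 95.5 and 94.2% in PF_D. The cinnamoyl-CoA reductase-like TRINITY_DN25108_c0_g1 made up most of the rest, 88.8 ± 8.72% in PF_L and 6.59 ± 3.21% in PF_D (SD, n = 3). The sum over the DFR number, 8.56 ± 1.11 TPM in PF_L and 607 ± 288 TPM in PF_D, was therefore 70.9 times higher in PF_D, far less than the 620 times of TRINITY_DN14121_c0_g3 alone.

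Shares among the 3 members with the BZ1 number changed in a like way, while the mean level of each was higher in PF_D than in PF_L. TRINITY_DN20511_c0_g4 supplied 5.24, 4.50 and 4.72% of the summed TPM in PF_L, 40.9, 35.2 and 36.0% in PF_Z, and 84.5, 73.9 and 64.8% in PF_D. TRINITY_DN20511_c0_g2 supplied 80.8 ± 2.46% in PF_L, 36.9 ± 2.80% in PF_Z and 17.4 ± 7.64% in PF_D. TRINITY_DN20511_c0_g3 had its largest share in PF_Z, at 25.7 ± 0.319% beside 14.4 ± 2.22% and 8.27 ± 2.30% (SD, n = 3). The libraries of each stage were separate from those of the other stages for all 3 unigenes. The sum was 39.8 ± 9.92, 152 ± 52.0 and 523 ± 157 TPM, a PF_D sum 13.1 times that of PF_L beside 198 times for TRINITY_DN20511_c0_g4.

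**Figure D2:**
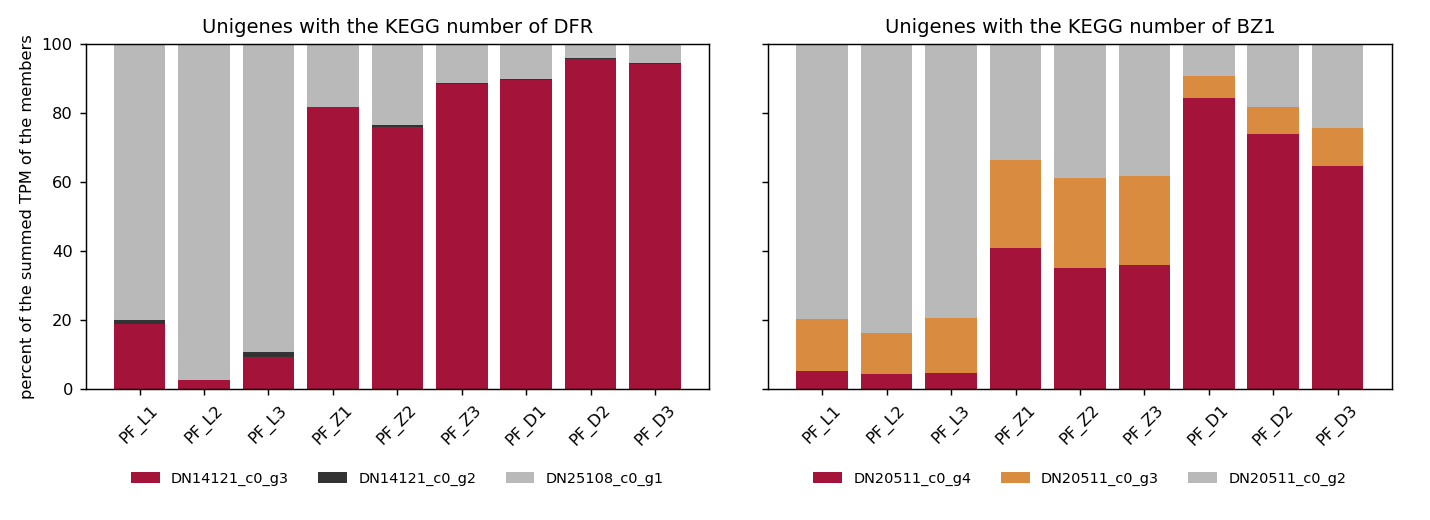
Share of each member in the summed TPM of the members with its KEGG number, in percent (bars from 0 to 100), for DFR (left) and BZ1 (right) in 9 libraries. TRINITY_DN25108_c0_g1 and TRINITY_DN20511_c0_g2 make up about 80% or more of PF_L, and TRINITY_DN14121_c0_g3 and TRINITY_DN20511_c0_g4 most of PF_D.

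The 3 leading unigenes kept different ratios to one another over the stages. ANS to TRINITY_DN20511_c0_g4 was 1.98, 0.854 and 1.64 in PF_L, 4.72, 4.29 and 3.52 in PF_Z, and 2.25, 1.98 and 2.40 in PF_D. PF_Z stood apart from both other stages, and PF_L and PF_D met at 1.98. TRINITY_DN14121_c0_g3 to TRINITY_DN20511_c0_g4 was 0.415 ± 0.268 in PF_L, 1.79 ± 0.355 in PF_Z and 1.47 ± 0.625 in PF_D (SD, n = 3), with PF_L below every library of the later stages. This second ratio overlapped between PF_Z and PF_D, so only the ratio to ANS set PF_Z apart. The glucosyltransferase unigene made up 14.4 ± 0.560% of the sum of the 3 in PF_Z, beside 36.6 ± 11.5% in PF_L and 21.7 ± 3.17% in PF_D. The PF_L ratios rest on values of a few TPM and are the least precise.

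ANS to TRINITY_DN14121_c0_g3 was 2.83, 5.09 and 4.36 in PF_L, 3.28, 2.39 and 1.64 in PF_Z, and 2.84, 1.25 and 1.19 in PF_D. ANS was above TRINITY_DN14121_c0_g3 in all 9 libraries, and neighbouring stages overlapped. The sum of the 3 DFR members was above ANS in every PF_L library, at 9.65, 8.60 and 7.43 TPM beside 5.20, 1.17 and 3.01 TPM. In PF_D, replicate 1 had a ratio more than 2 times that of replicates 2 and 3, since its DFR level was low while its ANS level was near that of replicate 3.

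**Figure D3:**
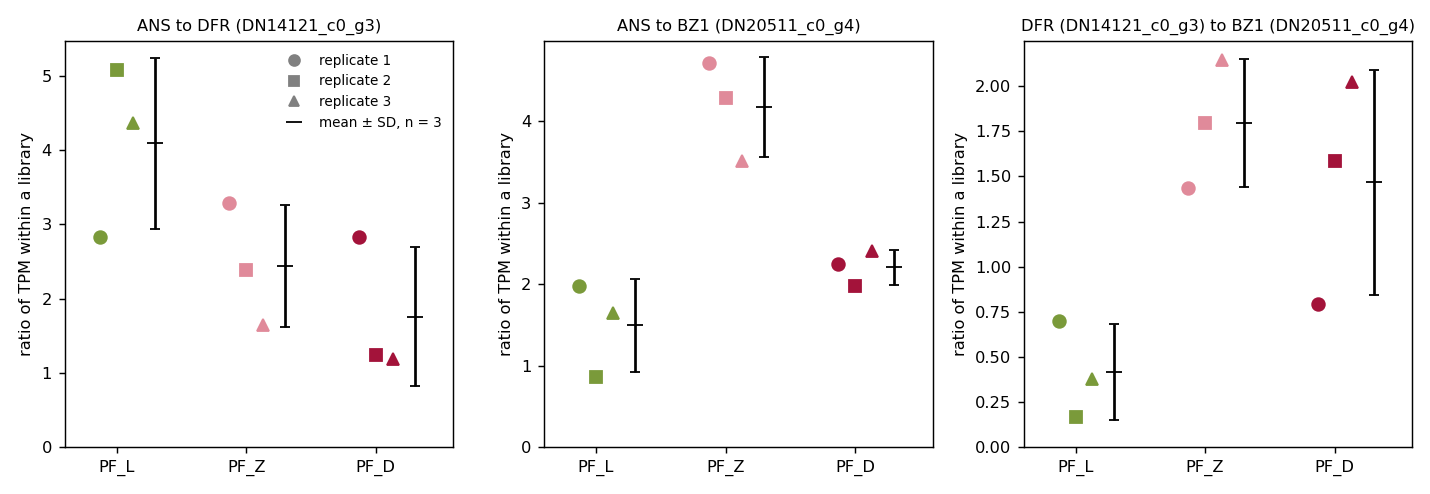
Ratios of TPM between the 3 leading unigenes within each library, by stage, on linear axes from 0; symbols are replicates and bars are mean ± SD of 3 libraries. The ratio of ANS to TRINITY_DN20511_c0_g4 lies between 3.52 and 4.72 in PF_Z and at 2.40 or below elsewhere.

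The order of the 7 also differed between stages. In PF_L, TRINITY_DN20511_c0_g2 led without overlap, TRINITY_DN25108_c0_g1 and TRINITY_DN20511_c0_g3 overlapped, and ANS, TRINITY_DN20511_c0_g4 and TRINITY_DN14121_c0_g3 followed with overlapping ranges. In PF_D, ANS led and overlapped TRINITY_DN14121_c0_g3, which overlapped TRINITY_DN20511_c0_g4, while TRINITY_DN20511_c0_g2, TRINITY_DN20511_c0_g3 and TRINITY_DN25108_c0_g1 overlapped below them. TRINITY_DN14121_c0_g2 was last in every library. The 7 together were 51.5 ± 12.6 TPM in PF_L, 511 ± 156 TPM in PF_Z and 1966 ± 575 TPM in PF_D (SD, n = 3), or 0.00518%, 0.0513% and 0.198% of the library total.

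Within a stage, the same libraries tended to be low or high for most of the 7. PF_L replicate 2 was the lowest of its stage for 6 of 7 members, PF_Z replicate 2 for 5 and PF_D replicate 1 for 6, beside 34.3%, 34.8% and 42.3% of all tested unigenes. PF_Z replicate 3 and PF_D replicate 2 were the highest of their stages for 6 of 7 members each, beside 46.4% and 40.3% of all tested. Among 117 other unigenes of the pathway, counted further below, PF_L replicate 2 was lowest for 55, PF_Z replicate 2 for 60 and PF_D replicate 1 for 62. PF_Z replicate 3 was highest for 62 of them and PF_D replicate 2 for 35. The sum of the 7 was 544, 341 and 647 TPM in PF_Z replicates 1, 2 and 3 and 1414, 2561 and 1922 TPM in PF_D replicates 1, 2 and 3. The green-tissue sum had the opposite order in PF_D, at 2095, 540.1 and 1244 TPM, but not in PF_Z, at 9940, 5177 and 2377 TPM, and its part in the spread was not tested. After removal of the stage means, the deviations of TRINITY_DN14121_c0_g3 had a Pearson correlation of 0.969 with those of TRINITY_DN20511_c0_g3 and 0.949 with those of TRINITY_DN20511_c0_g2, and those of ANS 0.828 with TRINITY_DN20511_c0_g4, while TRINITY_DN25108_c0_g1 had -0.198 with ANS. These are descriptions over 9 libraries in which all points share their library and its scaling.

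**Figure D4:**
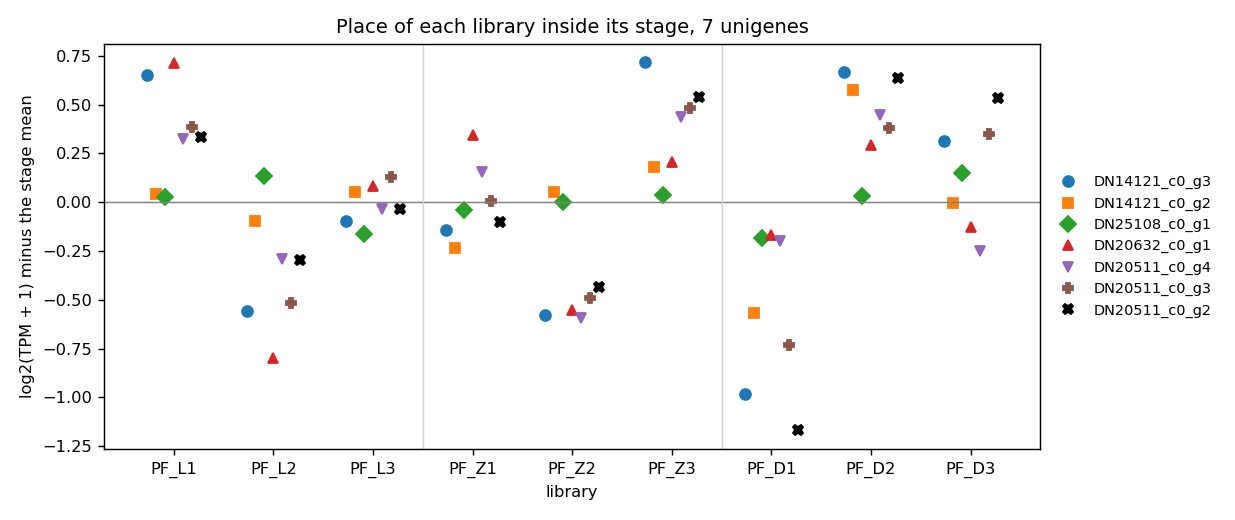
Deviation of each library from the mean of its stage, in log2(TPM + 1), for the 7 unigenes (one symbol each); vertical lines part the stages. Most symbols lie below 0 in PF_L2, PF_Z2 and PF_D1 and above 0 in PF_Z3 and PF_D2, and TRINITY_DN25108_c0_g1 stays within 0.2 of 0.

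A further 6 unigenes carry the KEGG number of 1 of the 3 enzymes. TRINITY_DN21027_c0_g1, leucoanthocyanidin dioxygenase-like and named SRG1, rose from 13.5 ± 1.57 TPM in PF_L and 18.4 ± 2.03 TPM in PF_Z to 59.7 ± 8.62 TPM in PF_D (log2 difference PF_D over PF_L 2.06, SE 0.16, limma, Benjamini-Hochberg adjusted p = 9.36e-06). Its course was late, with 20.5% of the log2 difference present at PF_Z. TRINITY_DN17621_c1_g1, with the DFR number but described as a tetraketide alpha-pyrone reductase, an enzyme of pollen wall synthesis in Arabidopsis, fell from 8.25 ± 0.841 to 1.55 ± 0.617 TPM (log2 difference -1.88, SE 0.25, limma, Benjamini-Hochberg adjusted p = 0.00028). The other unigene named ANS, TRINITY_DN21027_c0_g2, was at 20.9 ± 2.48, 15.1 ± 2.65 and 11.4 ± 1.88 TPM and was not called, so in PF_L it was above the listed ANS unigene.

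The remaining ones were low at every stage. TRINITY_DN16693_c0_g1, with the DFR number but named anthocyanidin reductase, was at 3.71 ± 0.401, 3.40 ± 0.501 and 5.62 ± 0.514 TPM, and TRINITY_DN9017_c0_g2, a glucosyltransferase fragment of 408 bases named GT7, at 0.43 to 1.56 TPM on average, and neither was called. TRINITY_DN14121_c0_g1, a DFR fragment of 663 bases from the cluster of TRINITY_DN14121_c0_g3, was at 0, 0 and 0.07 TPM in PF_L, at 0.27, 0.15 and 0 TPM in PF_Z, and at 0.68, 3.50 and 3.38 TPM in PF_D, and was not tested for want of 3 libraries at 1 TPM.

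The rest of the pathway was counted over 120 further unigenes with 18 KEGG numbers of phenylpropanoid, flavonoid and anthocyanin enzymes, those of DFR, ANS and BZ1 included. Of 117 tested, 39 (33.3%) rose and 28 (23.9%) fell from PF_L to PF_D, 24 (20.5%) rose and 6 (5.13%) fell from PF_L to PF_Z, and 23 (19.7%) rose and 22 (18.8%) fell from PF_Z to PF_D, by limma. Their median log2 difference was 0.08, 0.17 and -0.16 in that order. The near-even split after PF_Z turned to 21 that rose and 24 that fell with scaling by median ratios, so neither direction led. Without single libraries, the count that fell from PF_L to PF_Z went from 2 (without PF_L replicate 1) to 9 (without PF_Z replicate 3), with 3 without PF_L replicate 2 or PF_L replicate 3. By enzyme, the counts were as follows, and nothing is read from those near the shares of all tested unigenes.

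Of the entry enzymes, all 3 tested phenylalanine ammonia-lyase unigenes, 1 of 2 cinnamate 4-hydroxylase and 4 of 14 4-coumarate-CoA ligase unigenes rose from PF_L to PF_D, and 1 of the ligases fell. Of the enzymes that make the flavonoid skeleton, 5 of 6 chalcone synthase, 2 of 2 chalcone isomerase, 3 of 4 flavanone 3-hydroxylase and 2 of 3 flavonoid 3'-hydroxylase unigenes rose, while 1 with the last number and 1 of 2 with that of flavonoid 3',5'-hydroxylase fell. Phenylalanine ammonia-lyase, cinnamate 4-hydroxylase, chalcone synthase, chalcone isomerase and flavonoid 3'-hydroxylase had as many unigenes higher in PF_Z than in PF_L as in PF_D (3, 1, 5, 2 and 2), and none of their tested unigenes was called between PF_Z and PF_D by limma. Of the flavanone 3-hydroxylase unigenes, 2 of 4 rose from PF_Z to PF_D. The most abundant flavanone 3-hydroxylase, TRINITY_DN19052_c0_g2, was at 62.2 ± 19.7, 560 ± 131 and 395 ± 55.4 TPM in PF_L, PF_Z and PF_D, and the most abundant chalcone isomerase, TRINITY_DN16164_c0_g1, at 49.4 ± 15.4, 266 ± 61.1 and 186 ± 35.8 TPM. The leading chalcone synthase fragment, TRINITY_DN26374_c0_g4 of 260 bases, was at 184 ± 92.9, 2387 ± 909 and 3680 ± 869 TPM.

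Beside the leading flavanone 3-hydroxylase and chalcone isomerase, TRINITY_DN14121_c0_g3 and ANS went on to higher levels after PF_Z. So did the leading phenylalanine ammonia-lyase, TRINITY_DN17398_c0_g2, from 96.8 ± 25.8 to 190 ± 37.5 TPM, by a log2 difference of 0.98, just under the limit. Chalcone synthase was also higher in PF_D on average, without a call. Its sum went from 3432 ± 1223 to 5543 ± 1206 TPM with overlapping libraries. TRINITY_DN18433_c0_g5, with the chalcone synthase number, went from 321 ± 73.7 to 571 ± 35.2 TPM without overlap. The ratio of ANS to the leading flavanone 3-hydroxylase was 0.0465 ± 0.0182 in PF_L, 0.416 ± 0.0833 in PF_Z and 2.13 ± 0.384 in PF_D (SD, n = 3), and that of TRINITY_DN14121_c0_g3 was 0.0130 ± 0.00893, 0.179 ± 0.0450 and 1.40 ± 0.605. In each PF_Z library both unigenes were below this enzyme, and in each PF_D library ANS was above it. The ratio of ANS to the leading chalcone isomerase was 0.0585 ± 0.0231, 0.876 ± 0.163 and 4.59 ± 0.971 over the same stages. That to the leading chalcone synthase fragment moved less after PF_Z, from 0.101 ± 0.0161 to 0.231 ± 0.0352 in PF_D.

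The KEGG number of flavonol synthase, the enzyme that competes with DFR for dihydroflavonols, held 26 tested unigenes. Of these, 8 rose and 5 fell from PF_L to PF_D, beside 9.38% higher and 15.7% lower of all tested. The unigene with the highest mean over the 9 libraries, TRINITY_DN23412_c0_g1, described as flavonol synthase 3-like but named DLO2 after an Arabidopsis oxygenase, fell from 371 ± 107 to 158 ± 47.4 TPM (log2 difference -1.22, SE 0.38, limma, Benjamini-Hochberg adjusted p = 0.0287), with 290 ± 145 TPM in PF_Z. The ratio of ANS to it was 0.0207, 0.00256 and 0.00742 in PF_L, 1.04, 0.349 and 1.71 in PF_Z, and 5.96, 4.78 and 5.46 in PF_D. ANS was thus below this unigene in every PF_L library and above it in every PF_D library. The sum over all unigenes with the number went from 745 ± 105 through 970 ± 58.9 to 1260 ± 61.2 TPM (SD, n = 3) and was above ANS in every library, in PF_D at 1195, 1267 and 1317 TPM. Another unigene with this number, TRINITY_DN21644_c0_g2, described as flavonol synthase/flavanone 3-hydroxylase-like, rose from 6.78 ± 1.10 through 75.9 ± 8.25 to 494 ± 35.2 TPM (PF_D mean 72.8 times that of PF_L, adjusted p = 1.59e-08 by limma with Benjamini-Hochberg adjustment), so the number did not move in 1 direction, and in PF_D this unigene was the more abundant of the pair.

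Of the flavan-3-ol branch, 2 of 6 tested unigenes with the anthocyanidin reductase number rose and 2 fell from PF_L to PF_D. With the leucoanthocyanidin reductase number, 0 of 6 rose and 2 fell, beside 9.38% higher and 15.7% lower of all tested. TRINITY_DN18130_c0_g3, described as anthocyanidin reductase, was at 12.5 ± 3.02, 17.8 ± 6.36 and 2.35 ± 0.730 TPM, and fell by 2.01 on the log2(TPM + 1) scale from PF_L to PF_D (SE 0.29, limma, Benjamini-Hochberg adjusted p = 0.000488). TRINITY_DN15157_c0_g2, described as anthocyanidin reductase-like, was at 0.263 ± 0.0289 TPM in PF_L and at 1.81, 15.47 and 11.09 TPM in PF_D. Only its PF_D libraries reached 1 TPM, so it passed the filter only through the stage where it is high. Nothing is read from its call, which is 1 of the 2 counted as higher under the anthocyanidin reductase number. TRINITY_DN22095_c0_g1, the most abundant unigene with that number but described as dihydroflavonol-4-reductase-like and named SNL6 after a rice cinnamoyl-CoA reductase-like gene, rose from 30.8 ± 8.28 to 127 ± 37.4 TPM (adjusted p = 0.000419 by limma with Benjamini-Hochberg adjustment). Both leading unigenes with the leucoanthocyanidin reductase number belong to 1 cluster, are described as an isoflavone reductase homolog and as eugenol synthase 1b, a scent enzyme, and were at 38.8 ± 7.77, 51.0 ± 4.20 and 21.4 ± 5.99 TPM and at 32.9 ± 5.69, 51.0 ± 3.79 and 10.2 ± 2.16 TPM.

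Of the enzymes that the paper groups under anthocyanin modification, UGT75C1 is a 5-O-glucosyltransferase. Its number had 4 of 7 tested unigenes that rose and 2 that fell from PF_L to PF_D, and 0 called between PF_L and PF_Z. The largest rise there was that of TRINITY_DN11812_c0_g1, described as crocetin glucosyltransferase-like, from 0.563 ± 0.196 and 1.45 ± 0.571 TPM in PF_L and PF_Z to 39.6 ± 9.06 TPM in PF_D (log2 difference PF_D over PF_L 4.68, SE 0.26, adjusted p = 1.17e-06 by limma with Benjamini-Hochberg adjustment). The number of UGAT, a glucuronosyltransferase, had 0 of 7 higher and 6 of 7 lower, among them TRINITY_DN18792_c0_g1, named UGT91C1, from 11.4 ± 1.05 to 0.773 ± 0.208 TPM. The number of anthocyanidin 5,3-O-glucosyltransferase, which the paper labels GT1, had 2 of 14 higher and 3 lower. It is not the BZ1 number of TRINITY_DN20511_c0_g4, which carries the gene name GT1. The number of UGT79B1 had 2 of 10 higher and 4 lower. Of all tested unigenes, 9.38% were higher and 15.7% lower, and nothing is read from counts near these shares.

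**Figure D5:**
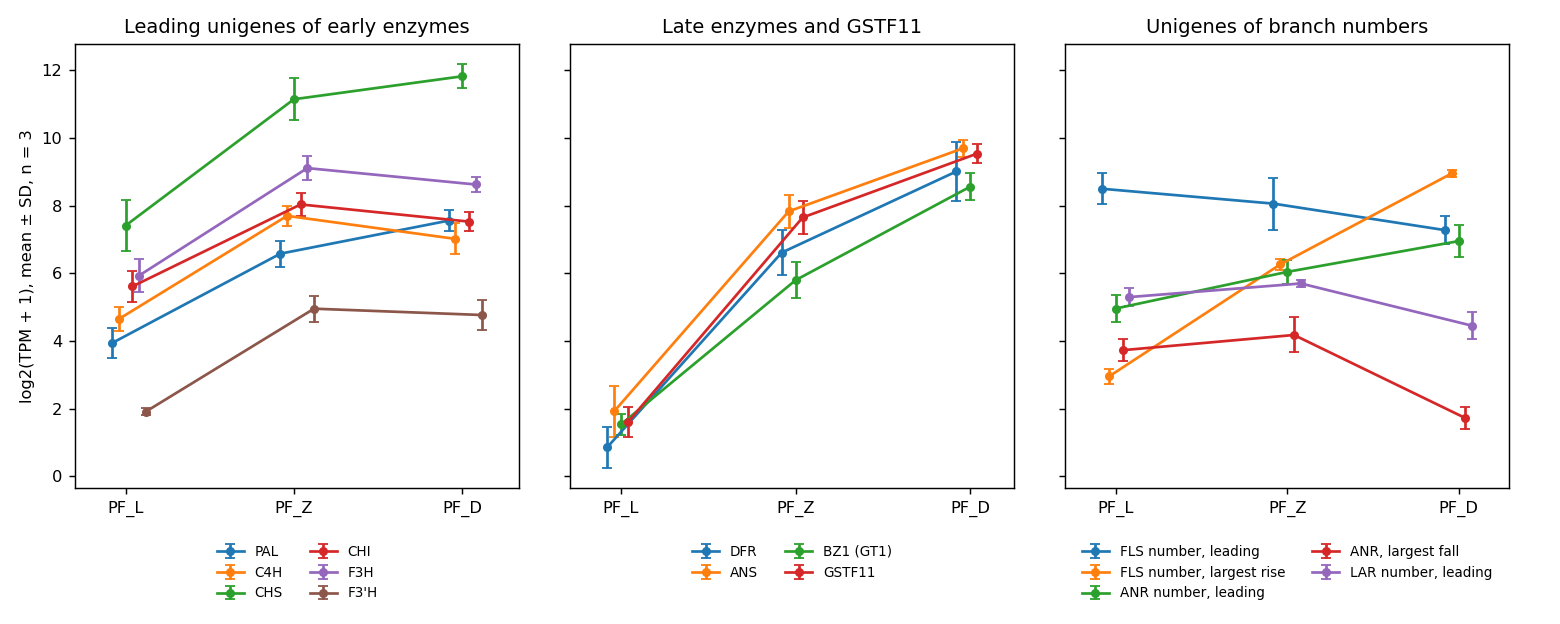
Course of single unigenes over PF_L, PF_Z and PF_D as mean log2(TPM + 1) ± SD of 3 libraries: the most abundant unigene of each early enzyme (left), the leading DFR, ANS and BZ1 unigenes with GSTF11 (middle), and unigenes with the numbers of flavonol synthase (FLS), anthocyanidin reductase (ANR) and leucoanthocyanidin reductase (LAR) (right). The mean of flavanone 3-hydroxylase goes from 560 to 395 TPM between PF_Z and PF_D, while ANS goes from 234 to 836 TPM.

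The unigenes most like the member sum of each enzyme were sought among 10993 others with a gene name and at least 10 TPM in their highest stage. The measure was the Pearson correlation of log2(TPM + 1) over 9 libraries. ANS was most like TRINITY_DN12743_c0_g1, a glutathione S-transferase F11-like unigene (GSTF11) of the family that carries anthocyanins to the vacuole in petunia and Arabidopsis, at r = 0.9978. GSTF11 was at 2.74, 1.14 and 2.53 TPM in PF_L, at 206.17, 140.65 and 273.13 TPM in PF_Z, and at 625.53, 904.81 and 718.26 TPM in PF_D. It overlapped the range of ANS at each stage, and its PF_D level was 7.93 (SE 0.28) above PF_L on the log2(TPM + 1) scale. The next most like ANS were At2g37700, an ECERIFERUM 1-like wax gene (0.9962), KAS1, of fatty acid synthesis (0.9951), a chalcone synthase unigene named PKS1 (0.9943) and PAL1 (0.9936).

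The DFR sum was most like an acyltransferase-like unigene named At1g54570 (0.9967), the homeodomain gene BLH1 (0.9962), the invertase INV3 (0.9947), the oxidase-like At1g06620 (0.9946) and the malonate-CoA ligase AAE13 (0.9921). The BZ1 sum was most like the quinone oxidoreductase caa43 (0.9963), the small GTPase RAC3 (0.9916), AAE13 (0.9908), the starch enzyme AGPS1 (0.9898) and the cytochrome P450 CYP84A1 (0.9888). The differences between stages make up most of these correlations, and the range of the levels did not enter them: AAE13 went from 57.3 ± 4.98 to 195 ± 29.6 TPM while the DFR sum went from 8.56 to 607 TPM. Both lists follow mixed sums. In PF_L, 88.8% of the DFR sum came from TRINITY_DN25108_c0_g1 and 80.8% of the BZ1 sum from TRINITY_DN20511_c0_g2. Likeness to the leading DFR and BZ1 unigenes alone was not computed.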

How the data were processed

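RNA of petals was sequenced on an Illumina platform by the authors, who assembled the reads of all 9 libraries with Trinity and annotated unigenes with DIAMOND. Expression was deposited as TPM, a unit in which the authors corrected each unigene for length and each library for its total. The program that estimated them is not given in the sources used here. The submitters' processing notes name StringTie 1.3.0, HISAT2 2.0 and Bowtie 0.12.2, and mm8 as a build, with no role. As the deposited TPM hold no counts, the count test of the study (edgeR) was not used and precision at a few TPM is low.

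The test covered the 47924 unigenes that reached 1 TPM in 3 libraries or more. Their log2(TPM + 1) values entered limma (3.58.1, under R 4.3.3) with a separate mean for each stage, a variance trend and Benjamini-Hochberg adjustment over all of them. Calls were made at an absolute log2 fold change of at least 1 and an adjusted p under 0.05. The p-values measure the spread between the 3 libraries of a stage, labelled biological replicates. The procedure was tested on simulated data. Members, gene lists and tests were chosen with earlier results of these data known. Beside the 7 members, the genes named are the other unigenes with the numbers of DFR, ANS and BZ1, and, from each other number, those with the highest mean, largest called rise and largest called fall, with a selection given. The 5 unigenes most correlated with each enzyme sum were added. Replicate numbers did not pair the libraries. Marker lists were kept to unigenes whose description is of the class, a choice made after seeing the data. Alternatives were other pseudocounts, filters, scalings, model terms and the omission of each library. Plots were made in Python 3.11.15 (matplotlib 3.10.9).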

Additional observations from a re-analysis of the deposited data

How the results depend on the processing

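The differences of the enzyme sums kept their direction under the alternatives run. The balance of other pathway unigenes between PF_Z and PF_D, 23 higher and 22 lower, turned to 23 and 28 with 0.1 added to the TPM, 21 and 24 with median ratios, 22 and 24 with quantile normalization, 21 and 22 in both the fit without a variance trend and that of 6 libraries, 17 and 20 without PF_D replicate 2 and 17 and 22 without PF_D replicate 3, so it has no stable direction. With 5 added to the TPM in place of 1, the ANS difference was 6.71 in place of 7.78 between PF_D and PF_L, and 4.86 in place of 5.91 between PF_Z and PF_L. Of the other pathway unigenes, 12 in place of 28 were then lower in PF_D than in PF_L, 2 in place of 6 lower in PF_Z than in PF_L, 14 in place of 23 higher in PF_D than in PF_Z and 13 in place of 22 lower there, since a larger added value shrinks the change of low unigenes. The count lower in PF_Z than in PF_L was 2 to 9 as single libraries were left out. The other 56 counts and 34 sums under settings that kept every library stayed within 1.5 times or 1 SD of the value given, and the shares of TRINITY_DN14121_c0_g3 and TRINITY_DN20511_c0_g4 moved by less than their SD in 6 of 6. For TRINITY_DN14121_c0_g3, PF_D over PF_L was 9.33 with 0.1 added and 6.46 with 5 added, and 7.82 to 8.64 without single libraries.

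Replicate numbers were checked for pairing: deviations of same-numbered libraries had correlations of -0.0963 to 0.0432, so they share only a number. With the replicate block, 39 other pathway unigenes rose and 28 fell from PF_L to PF_D, 23 rose and 6 fell from PF_L to PF_Z, and 23 rose and 21 fell from PF_Z to PF_D. TPM hold no counts and the read numbers of the paper were not used. Levels of a few TPM, which set the size of the ratios to PF_L, therefore have no counting error attached.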
